A study of Homo sapiens with 16 samples.

Results

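The H3K4me3 and H3K9me2 peak lists of MCF-10A cells were set against each other, to describe where peaks of H3K9me2 lie relative to peaks of H3K4me3. They make up 4 of the 16 samples of the series, 2 H3K4me3 and 2 H3K9me2 libraries, and every peak on an autosome was used. The H3K4me3 lists held 15015 and 16174 autosomal peaks in replicates 1 and 2, and the H3K9me2 lists held 10418 and 8701. The series maps 3 histone H3 modifications by chromatin immunoprecipitation and sequencing (ChIP-seq) in 2 breast cell lines, and its title concerns DNA bound to the nuclear matrix.

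MCF-10A is an immortalised, non-tumorigenic human breast epithelial line, labelled as luminal ductal and grown with EGF, insulin, cholera toxin and hydrocortisone. MDA-MB-231, used only for comparison, is a human breast cancer line, and its H3K4me3 and H3K9me2 lists likewise have 2 replicates each. MCF-10A H3K27me3, with 2 replicates, served as the second repressive mark of the same cells. No sample carried a treatment or an engineered allele. Each line is a single laboratory-maintained stock, so replicates described as biological measure the spread between cultures of that stock. Both H3K4me3 and H3K9me2 were pulled down with mouse monoclonal antibodies, and H3K27me3 with a rabbit polyclonal one. Peak lists hold no expression values, so the labelled cell type could not be checked against marker genes.

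H3K4me3 is trimethylation of lysine 4 on histone H3. It is written by the SET1 and MLL methyltransferase complexes, sits as sharp peaks over the start sites of active and poised genes, and is typical of unmethylated CpG islands. H3K9me2 is dimethylation of lysine 9, written mainly by G9a and GLP, and is known for broad domains of silent chromatin that often lie at the nuclear lamina. H3K27me3 is the product of Polycomb repressive complex 2 and can share promoters with H3K4me3.

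Each deposited list gives the position, a name and a score for every peak. The authors assigned the score on a scale that the sources used here do not give. Ranks by score were made inside a list, but the alternative with scores of at least 100 set the same cut for every list. In MCF-10A that cut kept 91.3% and 89.4% of the H3K4me3 peaks but 21.4% and 19.8% of the H3K9me2 peaks. In MDA-MB-231 it kept 15.2% and 13.8% of the H3K9me2 peaks. Positions are on hg19, counted from 1. No gene is named and no sequence is shown, because no genome or annotation of that build was used here. The lists hold no read counts, so the depth behind a peak is unknown, and a peak that is missing from a list may only have fallen short of the authors' threshold. Exact Clopper-Pearson intervals at 95% on shares of peaks cover counting error only, since peaks of 1 library are not replicates.

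The peaks of both marks took up a similar, small part of the genome. H3K4me3 peaks covered 19.4 and 21.3 Mb of the autosomes and H3K9me2 peaks 18.6 and 15.3 Mb. H3K4me3 peaks had median widths of 1216 and 1249 bp, and H3K9me2 peaks of 1606 and 1577 bp. H3K9me2 was therefore listed as narrow peaks rather than as broad domains, with the widest peaks at 14311 and 14439 bp. Peaks of the replicates that overlapped by at least 1 bp were merged, and a merged region with a peak of each replicate is called a region found in both. There were 13686 of these for H3K4me3 (86.4% of 15834 merged regions) and 5981 for H3K9me2 (46.1% of 12980). H3K9me2 thus varied more between replicates than H3K4me3 did.

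A small share of the peaks of either mark lay on the other, and each mark also takes up little of the genome. H3K4me3 regions found in both cover 0.870% of the territory, the part of the autosomes spanned by peaks, and H3K9me2 regions found in both cover 0.518%. These are shares of bases and give no expected value for shares of peaks, where an overlap of 1 bp counts. No such expected value was computed. Of the H3K4me3 peaks, 216 (1.44%, interval 1.25 to 1.64%) in replicate 1 and 234 (1.45%, 1.27 to 1.64%) in replicate 2 overlapped a H3K9me2 region found in both, with a mean of 1.44 ± 0.0058% (SD, n = 2). Of the H3K9me2 peaks, 298 (2.86%, 2.55 to 3.20%) in replicate 1 and 234 (2.69%, 2.36 to 3.05%) in replicate 2 overlapped a H3K4me3 region found in both, with a mean of 2.77 ± 0.121% (SD, n = 2). In the 4 pairings of a H3K4me3 with a H3K9me2 library, the marks shared between 83.4 and 134 kb. Of the H3K9me2 bases, 0.545 to 0.719% lay on H3K4me3 peaks in these pairings. The H3K4me3 peaks of replicates 1 and 2 covered 0.784% and 0.860% of the territory. The Jaccard index of covered bases, which is shared bases over all covered bases, was 0.00241 to 0.00337.

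These shares depended on how an overlap was counted. When an overlap had to span at least 50% of the shorter interval, the means were 0.368% of H3K4me3 and 0.517% of H3K9me2 peaks. With peaks scoring at least 100, a cut that left only 21.4% and 19.8% of the H3K9me2 peaks, the H3K4me3 share was 0.330%. With H3K9me2 of either replicate it was 2.25%. With the 8701 top-scoring peaks of each list the H3K9me2 share was 1.81%.

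Most overlaps crossed 1 edge of the H3K4me3 region. The 217 overlapping H3K4me3 and 208 overlapping H3K9me2 regions found in both formed 223 pairs. In 212 of these (95.1%) the H3K9me2 region crossed 1 edge of the H3K4me3 region, the left edge in 112 and the right edge in 100. In the other 11 pairs the H3K4me3 region lay inside a wider H3K9me2 region, and in 0 pairs did H3K9me2 lie inside H3K4me3. Intervals of similar width that overlap mostly cross 1 edge wherever they are placed. Regions found in both had median widths of 1883 bp for H3K9me2 and 1497 bp for H3K4me3. No expected share of edge crossings was computed, so the 95.1% is a description. The median overlap was 397 bp (quartiles 241 and 539 bp, maximum 2400 bp), which was 26.4% of the H3K4me3 and 23.3% of the H3K9me2 width at the median. Only 6 H3K4me3 regions had both edges covered by H3K9me2 in this way.

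The peaks involved were ordinary members of their lists by score. Overlapping H3K4me3 peaks had median within-list score percentiles of 51.2 and 53.4, and overlapping H3K9me2 peaks of 53.4 and 55.2. Overlapping H3K4me3 peaks were slightly wider than the other H3K4me3 peaks, with medians of 1315 and 1344 bp against 1215 and 1248 bp. Overlapping H3K9me2 peaks were narrower than the other H3K9me2 peaks, with medians of 1441 and 1368.5 bp against 1611 and 1582 bp. By quartile of H3K4me3 width, the share of regions overlapping H3K9me2 was 1.20% in the narrowest, then 1.90% and 1.84%, and 1.41% in the widest.

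The H3K4me3 regions touched by H3K9me2 were shared with MDA-MB-231 about as often as any others. Of the 217, 198 (91.2%) were also found in both MDA-MB-231 libraries, against 12301 of all 13686 H3K4me3 regions (89.9%). Among the 997 H3K4me3 regions found in neither MDA-MB-231 library, 10 touched H3K9me2 (1.00%, interval 0.482 to 1.84%), against 1.61% (1.39 to 1.85%) of the shared ones, so the intervals overlap. Of the same 217 regions, 25 also overlapped any MDA-MB-231 H3K9me2 peak, and the share over all H3K4me3 regions was not counted. H3K4me3 regions with H3K27me3 were too few to tell their share with H3K9me2 from that of the other regions. Among the 298 H3K4me3 regions with H3K27me3 found in both, 3 (1.01%, interval 0.208 to 2.91%) had H3K9me2, against 214 of the 13388 without H3K27me3 (1.598%).

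The 8 named overlapping regions were chosen by the lowest of their 4 score percentiles. All 8 tied at a H3K4me3 replicate 2 score of 3100, which stands at percentile 84.4 of that list and is shared by many peaks, so chromosome order decided. The H3K9me2 region on chromosome 1 from 16971274 to 16976925 was the widest of them at 5652 bp. It stood at H3K9me2 percentiles 99.6 and 99.6 and was the only one of the 8 with H3K9me2 in both MDA-MB-231 libraries. The share of all H3K9me2 regions with H3K9me2 there was not counted. This region on chromosome 1 overlapped the right edge of its H3K4me3 region by 459 bp. On chromosome 16 from 90036158 to 90038916 the H3K9me2 region overlapped the left edge of its H3K4me3 region by 606 bp, at H3K9me2 percentiles 98.0 and 97.7.

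A pair lay close together on chromosome 8, from 145911705 to 145913715 and from 146053610 to 146055821, each across a right edge, by 281 and 482 bp. The remaining 4 had overlaps of 104 to 448 bp. The first lay on chromosome 6 (33756940 to 33758332), a pair on chromosome 7 (6768012 to 6769520, and 35735278 to 35737143) and another on chromosome 16 (4665026 to 4666235). All 8 H3K9me2 regions also overlapped H3K4me3 found in both MDA-MB-231 libraries, as did 2.66% and 2.47% of all MCF-10A H3K9me2 peaks. The share among all H3K9me2 regions that overlap MCF-10A H3K4me3 was not counted. None of the 8 overlapped H3K27me3 found in both, which 7.61% of all H3K9me2 regions did.

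Away from the overlaps, H3K9me2 peaks were spread over a wide range of distances. The gap from the nearer edge of a H3K9me2 peak to the nearest H3K4me3 region found in both had a median of 103 kb in replicate 1 and 105 kb in replicate 2 (mean 104 ± 0.783 kb, SD, n = 2). The middle 50% of peaks lay between 35.9 and 254 kb in replicate 1 and between 35.7 and 257 kb in replicate 2. Within 5 kb, overlaps included, lay 704 (6.76%) and 576 (6.62%) of the H3K9me2 peaks. Read from the other mark, H3K4me3 peaks lay a median of 179.5 and 177 kb from the nearest H3K9me2 region found in both. A H3K4me3 peak was a median of 21.9 and 19.9 kb from the next peak of its own list, and a H3K9me2 peak 42.0 and 50.1 kb.

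H3K9me2 was scarce inside H3K4me3 regions, dense in the first kilobase outside them and scarce again just beyond. The density ratio divides the share of H3K9me2 midpoints in a distance class by the share of the territory in it, so 1 means as many as the class's size gives. The territory is the span of the peaks of all 12 lists, without stretches of 1 Mb or more that hold no peak, and measured 2477.78 Mb. Inside H3K4me3 regions lay 29 and 25 midpoints, for ratios of 0.320 and 0.330 (mean 0.325 ± 0.00728, SD, n = 2). Up to 1 kb outside lay 296 and 236 midpoints, for ratios of 2.72 and 2.60 (mean 2.66 ± 0.0874, SD, n = 2). Both replicates were low inside and high just outside, and they lay close together.

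From 1 to 5 kb the ratios were 0.733 and 0.745, and from 5 to 20 kb they were 0.849 and 0.837. The next 2 classes were close to 1, at 1.04 and 1.04 from 20 to 100 kb and at 1.11 and 1.13 from 100 to 500 kb. Beyond 500 kb the ratios dropped to 0.753 and 0.735, so H3K9me2 peaks were not gathered far from H3K4me3. Each difference from 1 exceeded the spread between replicates, and no test was made within the pair of marks. In peaks scoring at least 100 the ratio from 5 to 20 kb was 1.07, on the other side of 1.

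The inside and first-kilobase ratios moved most with the way of counting. Counting covered bases instead of midpoints gave 0.792 inside and 1.69 up to 1 kb. The inside ratio rests on few midpoints. It was 0.209 with peaks scoring at least 100, 0.145 with lists of equal length, and 0.202 when H3K4me3 replicate 2 was left out. Over the whole chromosome span, with the peak-free stretches, the ratio beyond 500 kb was 0.493.

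**Figure D1:**
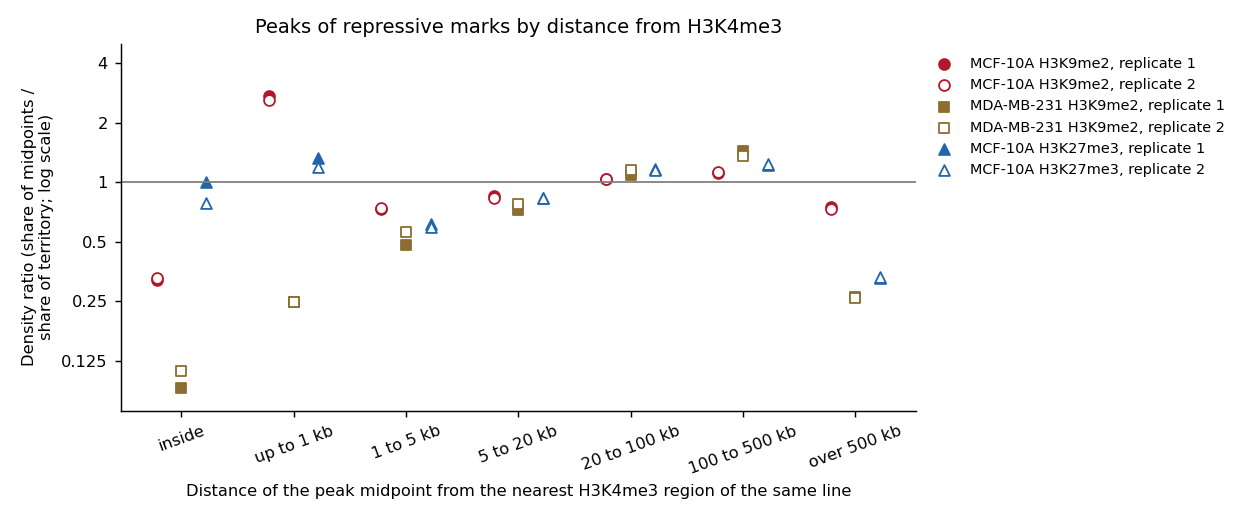
Density ratio (log scale) of peak midpoints in 7 classes of distance to the nearest H3K4me3 region of the same line, for each replicate of MCF-10A H3K9me2, MDA-MB-231 H3K9me2 and MCF-10A H3K27me3, with a line at 1. MCF-10A H3K9me2 stood at 2.72 and 2.60 up to 1 kb, where MDA-MB-231 H3K9me2 stood at 0.249 and 0.247.

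The excess next to H3K4me3 appeared as a narrow shoulder. At points set at fixed distances from the edges of the H3K4me3 regions, H3K9me2 peaks covered at most 1.42% of points at 600 bp outside in replicate 1 and 1.10% at 500 bp in replicate 2. These are 1.89 and 1.78 times the cover of the territory. At the edge itself the ratios were 1.59 and 1.46, and 500 bp inside they were 0.493 and 0.496. Cover fell below that of the territory from 1600 and 1500 bp outside and was lowest at 2100 and 1900 bp, at 0.815 and 0.757 times. It was 1.08 and 1.08 times at 50 kb and 1.27 and 1.32 times at 200 kb.

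**Figure D2:**
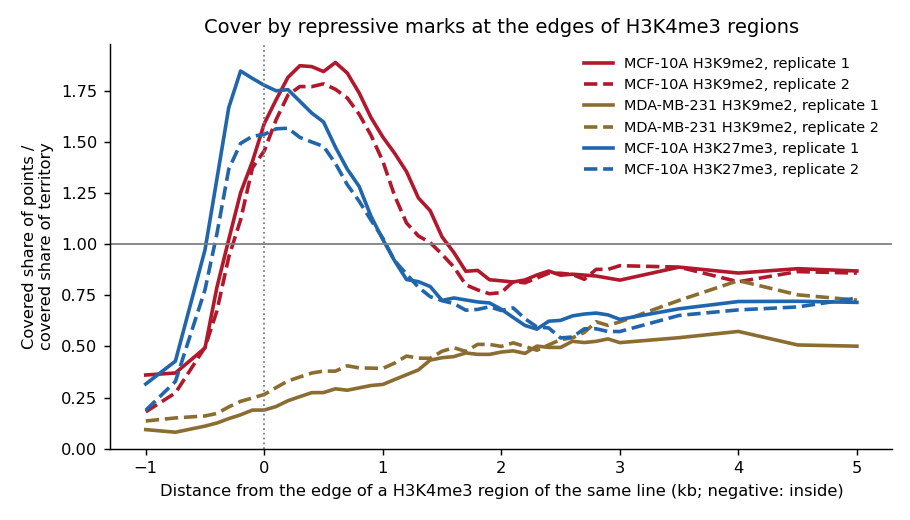
Share of points covered by peaks, divided by the covered share of the territory, from 1 kb inside to 5 kb outside the edges of H3K4me3 regions of the same line, for each replicate of 3 repressive lists. MCF-10A H3K9me2 is highest at 600 and 500 bp outside (1.89 and 1.78), MDA-MB-231 H3K9me2 stays below 1, and MCF-10A H3K27me3 is highest at or just outside the edge among the points from the edge outward (1.78 and 1.57).

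The shoulder lay on either side of H3K4me3 without a preferred side on the chromosome. At 500 bp outside, H3K9me2 of replicate 1 covered 183 H3K4me3 regions on the left only, 165 on the right only and 22 on both sides, in all 370 of 13686 (2.70%). For replicate 2 the numbers were 149, 135 and 11, in all 295 (2.16%). The 238 H3K4me3 regions (1.74%) with H3K9me2 beside them in both replicates had their nearest H3K4me3 neighbour at a median of 21.5 kb, against 30.4 kb for the other 13448 regions. Their median width was 1460 bp, against 1498 bp for the others. H3K9me2 flanked a small minority of H3K4me3 regions, most of them on 1 side.

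H3K9me2 peaks next to H3K4me3 were found again in the other replicate at least as often as those elsewhere. Of those centred up to 1 kb outside, 64.5% (interval 58.8 to 69.98%) of replicate 1 and 82.2% (76.7 to 86.9%) of replicate 2 overlapped a peak of the other list. Over all H3K9me2 peaks the shares were 58.1% and 69.7%, and beyond 500 kb they were 53.7% and 66.3%.

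Counted by midpoints, narrow H3K9me2 peaks held more of the excess outside H3K4me3 and less of the depletion inside it. Up to 1 kb from H3K4me3, the narrowest 25% of H3K9me2 peaks had density ratios of 4.38 and 4.88, and the next quartiles 3.05 and 2.64, then 2.36 and 1.99. The widest 25% stood at 1.11 and 0.882, on either side of 1. This measure is tied to width. The widest quartile began at 2010 and 1966 bp, so a peak of it that only abuts H3K4me3 is centred about 1 kb or more away. Covered bases were not counted by width. Overlap of at least 1 bp, which uses no midpoints, was 4.41% and 4.86% in the narrowest quartile and 2.11% and 1.56% in the widest. Inside H3K4me3 the narrowest quartile had ratios of 0.706 and 0.896, below 1 but above those of the other quartiles. The next had 0.0441 and 0.106, the one after 0.0883 and 0, and the widest 0.442 and 0.317. These inside ratios rest on few midpoints. By quartile of score the ratios ran only from 2.28 to 3.24 in replicate 1 and from 2.38 to 2.95 in replicate 2, with no steady order. The median distance to H3K4me3 was shortest in the top score quartile, at 84.2 and 86.4 kb, against 112 and 116 kb in the lowest.

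**Figure D3:**
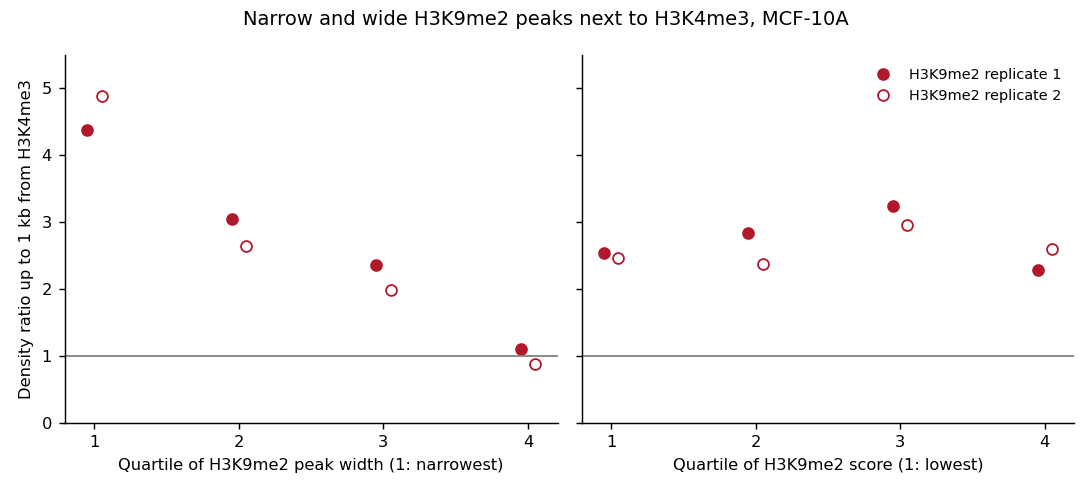
Density ratio of H3K9me2 midpoints up to 1 kb from H3K4me3 in MCF-10A by quartile of H3K9me2 peak width (left) and of score (right), 1 point per replicate, with a line at 1. The ratio is 4.38 and 4.88 in the narrowest quartile and 1.11 and 0.882 in the widest. Midpoints of wide peaks lie farther from their own edges, so the left panel is tied to width by the measure.

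The same question was put to H3K9me2 of MDA-MB-231 and to H3K27me3 of MCF-10A, each against H3K4me3 of its own line. In 16 comparisons, of the median distance and the 7 class ratios against each of them, the 2 MCF-10A H3K9me2 values never overlapped the other 2. Every two-sided exact permutation test gave p = 0.333 (adjusted 0.333 over the 16), the lowest value that groups of 2 and 2 can reach. The groups were apart in each comparison, but none could pass 0.05. The value 0.333 is also the share of arrangements in which 2 and 2 values lie apart. The 7 class ratios of a list are shares of 1 total, so the 16 comparisons are not independent. Some gaps were small, such as 0.849 and 0.837 against 0.834 and 0.829 for H3K27me3 from 5 to 20 kb.

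The first kilobase held the largest gap between the lines. MCF-10A H3K9me2 had ratios of 2.72 and 2.60 there, and MDA-MB-231 H3K9me2 had 0.249 and 0.247, a difference of 2.41. With the 4980 top-scoring peaks of each list the MCF-10A values were 2.66 and 2.71 and the MDA-MB-231 values 0.266 and 0.247, and the gap was as large as in the full lists. Inside H3K4me3 the ratios were 0.320 and 0.330 in MCF-10A and 0.0909 and 0.111 in MDA-MB-231. That difference of 0.224 shrank to 0.0412 with peaks scoring at least 100, to 0.120 with 4980 peaks a list, and to 0.101 without H3K4me3 replicate 2. Beyond 500 kb the ratios were 0.753 and 0.735 in MCF-10A and 0.264 and 0.260 in MDA-MB-231, with relatively more MCF-10A peaks in that class. The median distance went the other way, at 103.5 and 104.6 kb in MCF-10A and 114 and 105.4 kb in MDA-MB-231, a difference of -5.58 kb. Replicate 2 of each line stood nearly level, and the MDA-MB-231 replicates had an SD of 6.02 kb. With covered bases in place of midpoints, the difference between the lines was 1.37 in the first kilobase and 0.640 inside.

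A similar contrast next to H3K4me3 was seen when the H3K4me3 lists were exchanged between the lines, but the difference in median distance was not kept. Of the MCF-10A H3K4me3 regions, 89.9% were also found in both MDA-MB-231 libraries. The exchange therefore used mostly the same regions and was close to a repeat. Around the H3K4me3 regions of MDA-MB-231, MCF-10A H3K9me2 again peaked at 500 bp outside, at 1.86 and 1.78 times the territory. Around the H3K4me3 regions of MCF-10A, MDA-MB-231 H3K9me2 stood at 0.288 and 0.356 times at the edge, the lowest of the points from the edge outward. Overlap behaved alike: 2.66% and 2.47% of MCF-10A H3K9me2 peaks lay on MDA-MB-231 H3K4me3, while 0.674% and 0.703% of MDA-MB-231 H3K9me2 peaks lay on MCF-10A H3K4me3. Within MDA-MB-231, 0.477% and 0.542% of H3K9me2 peaks overlapped H3K4me3. Around MCF-10A H3K4me3 the median distances of MDA-MB-231 H3K9me2 were 108.1 and 100.9 kb, on either side of the 103.5 and 104.6 kb of MCF-10A H3K9me2. Around MDA-MB-231 H3K4me3 the medians of MCF-10A H3K9me2 were 103.9 and 106.5 kb, against 113.9 and 105.4 kb for MDA-MB-231 H3K9me2. The H3K9me2 libraries of the lines also differ in peak width, with medians of 1606 and 1577 bp in MCF-10A and 2201 and 1874 bp in MDA-MB-231, and the part of this in the gap was not tested.

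Against H3K27me3 of the same cells, the difference inside H3K4me3 kept its direction under each alternative run. Both H3K9me2 lists have wider peaks, with medians of 1606 and 1577 bp against 629 and 622 bp for H3K27me3, and the part of width in these differences was not tested. The H3K9me2 ratios of 0.320 and 0.330 inside stood below the H3K27me3 ratios of 1.00 and 0.782, and the difference of -0.566 was -0.970 with peaks scoring at least 100 and -1.35 with 4980 top-scoring peaks a list. Counted by covered bases it was -0.278. In the first kilobase H3K9me2 stood at 2.72 and 2.60 and H3K27me3 at 1.33 and 1.19. That difference of 1.4003 was 0.701 without H3K4me3 replicate 1 and 0.501 with peaks scoring at least 100. By covered bases H3K9me2 stood at 1.74 and 1.65 and H3K27me3 at 1.51 and 1.39, a difference of only 0.240. The midpoint difference turned round to -0.318 with 4980 peaks a list, where H3K9me2 stood at 2.66 and 2.71 and H3K27me3 at 3.02 and 2.98. Dense flanks were therefore not particular to H3K9me2, whereas H3K9me2 cover was highest 600 and 500 bp outside the edge and H3K27me3 cover, from the edge outward, at 0 and 200 bp. Beyond 500 kb the H3K9me2 ratios of 0.753 and 0.735 stood above the H3K27me3 ratios of 0.327 and 0.332.

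The marks met most on chromosomes dense in H3K4me3. The share of H3K9me2 peaks that overlapped H3K4me3 was highest on chromosome 19 (11.4% and 12.9%), chromosome 22 (9.17% and 8.16%) and chromosome 16 (5.74% and 5.07%). It was lowest on chromosome 4 (0.379% and 0.457%, 2 peaks in each replicate), chromosome 3 (1.08% and 0.732%) and chromosome 18 (0.858% and 1.14%). Across the 22 autosomes the mean share went with H3K4me3 peaks per Mb at Pearson's r = 0.919 and Spearman's rho = 0.705. This is a description, because the chromosomes share the 4 libraries and chromosome 19 stands far out in both measures. Such a share also rises with H3K4me3 density when peaks are placed without regard to H3K4me3. No expected share per chromosome was computed, so the relation says nothing about attraction between the marks. Chromosome 19 held 20.2 and 22.2 H3K4me3 peaks per Mb, and chromosome 4 held 3.37 and 3.65.

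H3K9me2 density itself followed another order. It was highest on chromosome 16 (10.2 and 9.01 peaks per Mb), chromosome 8 (8.88 and 8.02) and chromosome 7 (7.86 and 6.78), and lowest on chromosome 12 (2.82 and 2.20), chromosome 13 (2.66 and 2.41) and chromosome 15 (2.84 and 2.27). Its relation to H3K4me3 density was weak, at r = 0.327 and rho = 0.154 over the 22 autosomes.

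The excess in the first kilobase was present on most chromosomes. The ratio was above 1 in both replicates on 21 of 22 autosomes. The exception was chromosome 4, with 2 and 1 midpoints and ratios of 0.650 and 0.392. Some of the 21 rest on as few, with 2 and 2 midpoints on each of chromosomes 18 and 21. Chromosome 3 was barely above 1, at 1.05 and 1.14 on 5 and 4 midpoints. Without the 4 autosomes densest in H3K9me2 the ratios over the others were 2.19 and 2.01 up to 1 kb and 0.417 and 0.382 inside.

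**Figure D4:**
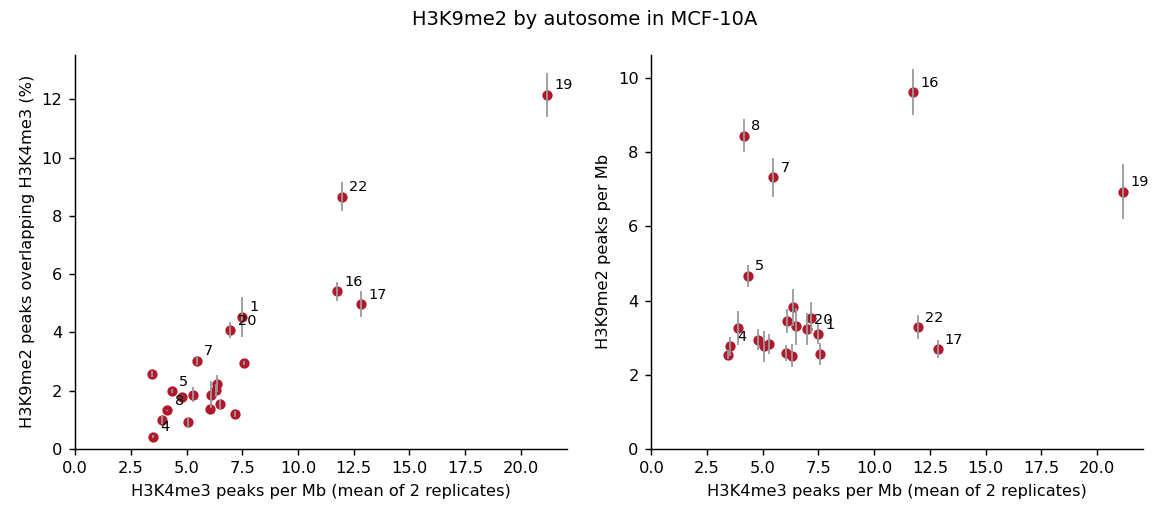
For each of the 22 autosomes in MCF-10A, the percentage of H3K9me2 peaks overlapping H3K4me3 regions (left) and H3K9me2 peaks per Mb (right) against H3K4me3 peaks per Mb, points being means of 2 replicates and vertical lines spanning both. Chromosome 19 is highest in H3K4me3 density and overlap, while chromosomes 16, 8 and 7 are highest in H3K9me2 density.

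Long stretches without H3K4me3 were not rich in H3K9me2. Gaps of 1 Mb or more between H3K4me3 peaks of either replicate numbered 518 and held 751.72 Mb, or 30.3% of the territory. They held 3.68 and 3.10 H3K9me2 peaks per Mb, against 4.20 and 3.51 over the whole territory. No H3K9me2 peak of either replicate lay in 46 of the gaps. Some of the 46 hold almost no territory, because stretches without a peak in any list were left out. The gap on chromosome 10 from 18949454 holds 3e-06 Mb of it, while that on chromosome 20 from 40322279 holds 1.76 Mb. Of the 5981 H3K9me2 regions found in both, 620 (10.4%) lay more than 500 kb from H3K4me3, and 241 (4.03%) lay within 5 kb without touching it.

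The 5 H3K9me2 regions farthest from any H3K4me3 peak all lay on chromosome 5 between 27072217 and 28084699, inside the H3K4me3-free stretch from 23507945 to 31531285. Their gaps were 3447 to 4007 kb. This stretch of 8.02 Mb held 31 and 22 H3K9me2 peaks, or 3.86 and 2.74 per Mb, close to the rate of all such stretches. These 5 regions were modest, at score percentiles between 19.97 and 81.4. None overlapped H3K9me2 found in both MDA-MB-231 libraries, but the share of all H3K9me2 regions that do so was not counted.

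The highest-scoring H3K9me2 regions within 5 kb of H3K4me3 but not touching it were chosen by H3K9me2 score alone, a rule that differs from that of the overlapping regions. The highest of the 4 named, on chromosome 2 from 87578280 to 87586771, ended or began 1.88 kb from H3K4me3. Next came a region on chromosome 9 (45425695 to 45436313) at a gap of 0.761 kb, a region on chromosome 19 (51313295 to 51317018) at 4.58 kb and another on chromosome 2 (91743500 to 91748704) at 1.97 kb. By that rule all 4 stood near the top of both H3K9me2 lists, the lowest at percentile 99.76. All 4 overlapped H3K9me2 in both MDA-MB-231 libraries, but the share of all H3K9me2 regions that do so was not counted. The 4 widest H3K9me2 regions lay on chromosome 3 (13743318 to 13757756), on chromosome 8 (86737484 to 86750777), on chromosome 7 (100674667 to 100687362) and on chromosome 11 (62288471 to 62300113). They were 11643 to 14439 bp wide and lay 11.04 to 359 kb from H3K4me3. These 4 also overlapped H3K9me2 in both MDA-MB-231 libraries, again without a share over all regions to set beside it.

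At the scale of 1 Mb the levels of the marks were nearly unrelated. The bases covered in each 1 Mb bin were divided by the total that the list covers, in Mb (bp/Mb). Then limma compared H3K4me3 with H3K9me2 on log2 of the quotient plus 10. Of 2494 bins, 701 (28.1%) were higher in H3K4me3 and 840 (33.7%) were higher in H3K9me2 at a Benjamini-Hochberg adjusted p under 0.05. H3K9me2 was listed at 0 in both replicates in 167 of the 701, and H3K4me3 in 255 of the 840. Across the bins the mean levels of the marks had a Spearman's rho of 0.110, a description over neighbouring bins of the same libraries. Replicates of a mark had r = 0.990 for H3K4me3 and 0.793 for H3K9me2.

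These counts depended on which libraries entered the fit. Without H3K4me3 replicate 1 or 2 they were 179 and 478, or 169 and 473, and without H3K9me2 replicate 1 or 2 they were 1156 and 831, or 1132 and 840. Limma fits 1 spread per bin for both marks, so a fit without 1 library takes the spread from the other mark alone. Replicate agreement was unequal, at r = 0.990 for H3K4me3 and 0.793 for H3K9me2. With peaks scoring at least 100, which left 21.4% and 19.8% of the H3K9me2 peaks, the counts were 1083 and 401. In bins of 250 kb they were 2720 and 2446 of 7278. Unscaled coverage gave 870 and 733, and moved the median log2 ratio of all bins to 0.28 from the 0.11 of scaled coverage.

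**Figure D5:**
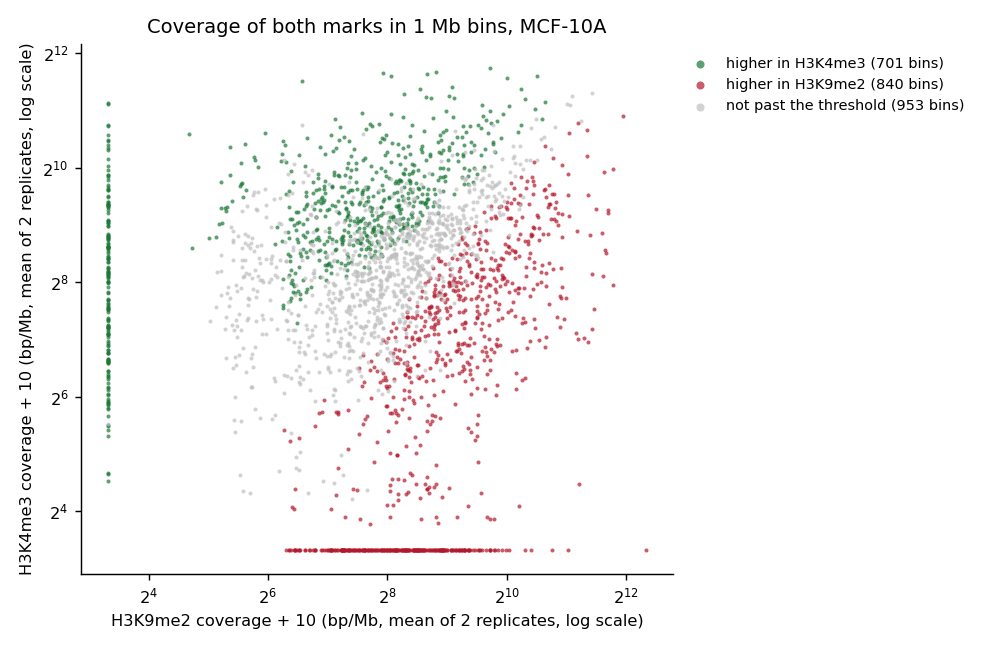
H3K4me3 against H3K9me2 coverage plus 10 (bp/Mb, mean of 2 replicates, log scales) in 2494 bins of 1 Mb on the autosomes of MCF-10A, coloured by the limma call. The 701 bins higher in H3K4me3 lie upper left, the 840 higher in H3K9me2 lower right, and the points lined up along the left and the bottom are bins where 1 mark is listed at 0.

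Whole chromosomes leaned to 1 mark. Bins higher in H3K9me2 made up 77.4% of those on chromosome 8, 57.2% on chromosome 7, 50.7% on chromosome 16 and 47.0% on chromosome 5. Bins higher in H3K4me3 made up 64.7% on chromosome 22, 58.9% on chromosome 19 and 52.6% on chromosome 17. Chromosome 8 had only 5.26% of its bins higher in H3K4me3.

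Of the 10 bins with the smallest p, 5 in each direction, 9 had 1 mark listed at 0 and low coverage of the other, 51.3 to 109 bp/Mb. The exception was chromosome 8 from 142000001 to 143000000. It had 362 and 371 bp/Mb of H3K4me3 and 3157 and 3244 bp/Mb of H3K9me2, which is -3.09 in log2 (adjusted p = 0.000324 by limma, SE 0.0597).

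The largest ratios among bins covered in all 4 libraries were looked up after their values were seen. On chromosome 17 from 38000001 to 39000000, H3K4me3 covered 1371 and 1451 bp/Mb and H3K9me2 covered 51.7 and 80.7 bp/Mb (4.25 in log2, adjusted p = 0.00143 by limma, SE 0.246). On chromosome 1 from 158000001 to 159000000, H3K4me3 covered 22.7 and 15.1 bp/Mb and H3K9me2 covered 593 and 862 bp/Mb (-4.66 in log2, adjusted p = 0.00193 by limma, SE 0.310). The replicates of the marks did not overlap in either bin.

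The bins fullest of a mark, also chosen after the values were seen, held both marks in part. On chromosome 16 from 30000001 to 31000000, the bin with most H3K4me3, coverage was 3393 and 3445 bp/Mb of H3K4me3 and 796 and 877 bp/Mb of H3K9me2. The bin with most H3K9me2, on chromosome 8 from 140000001 to 141000000, had H3K4me3 listed at 0 in both replicates and 4578 and 5690 bp/Mb of H3K9me2. The bin on the same chromosome from 144000001 to 145000000, the second highest in H3K9me2, had 1940 and 1884 bp/Mb of H3K4me3 and 3754 and 4112 bp/Mb of H3K9me2. Both marks were thus high in that bin, while H3K4me3 was missing from the other.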

How the data were processed

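The deposited files are 12 peak lists, 1 per immunoprecipitated library, with a score per peak that the authors assigned on a scale the sources used here do not state. Per the submitters' processing notes, CASAVA 1.6, Bowtie2, MACS 1.4, bedtools and hg19 were used, without their roles or settings. The labels' protocols state that replicates were combined for later work, whereas these lists are per replicate. The role of the 4 inputs in peak calling is likewise unknown here. Depth is unknown, so the 2 replicates per group limit the precision.

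Autosomal peaks were compared with pandas 2.3.3, SciPy 1.17.1, NumPy 2.4.6 and statsmodels 0.14.6 in Python 3.11.15, figures drawn with matplotlib 3.10.9, and bins tested with limma 3.58.1 (trend, empirical Bayes) in R 4.3.3. A bin was kept if 2 or more of the 4 libraries covered it; log2 ratios with a pseudocount of 10 bp/Mb understate the change of low bins. Distances to H3K4me3 used regions found in both replicates. Interval steps and the bin test were tested on simulated data. Regions named were the 8 overlapping and 4 near ones with the highest lowest score percentile, the 5 farthest and the 4 widest, and the 5 bins with the smallest p in each direction. The members and lists were chosen with earlier results of these data known. Alternatives were the overlap minimum, score, list length, chromosome X, pseudocount, bin width, scaling, the replicate block and each library left out. Equal list length across lines, the set without the 4 densest autosomes and covered bases between lists were added after seeing the data. Replicate numbers were not taken to pair the samples.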

Additional observations from a re-analysis of the deposited data

Results flagged for a closer look

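The density ratio of H3K9me2 peaks up to 1 kb from H3K4me3 differed between the lines by 2.41, MCF-10A minus MDA-MB-231, with values of 2.72 and 2.60 in MCF-10A and 0.249 and 0.247 in MDA-MB-231. It is listed here because both MCF-10A replicates lay above 1 and both MDA-MB-231 replicates below 1. The exact permutation test of the difference gave p = 0.333, the smallest that 2 against 2 libraries allow, and the difference was not tested further.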

How the results depend on the processing

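The first-kilobase excess and the low density inside H3K4me3 kept their side of 1 under every alternative run, but the values moved. The causes of these moves were not tested unless the alternative itself gives them, such as shorter lists. With an overlap of at least 50% of the shorter interval the shares were 0.368% of H3K4me3 and 0.517% of H3K9me2 peaks. With peaks of either replicate of the other mark they were 2.25% and 3.08%, and with equal list lengths 1.41% and 1.81%. With chromosome X the H3K4me3 share was 1.4035%, among peaks scoring 100 or more it was 0.330%, and with 4980 peaks a list the H3K9me2 share was 3.00%. The median distance was 88.7 kb with a score of at least 100, 152 kb with equal lengths, 105 kb from midpoints and 91.7 kb with either H3K4me3 replicate. The class ratios follow from inside outward. Covered bases gave 0.792, 1.69, 0.817, 0.883 and 1.05 for the first 5 classes and 0.714 beyond 500 kb. The whole span gave 0.366, 2.99, 0.831, 0.947, 1.16, 1.20 and 0.493. Peaks scoring 100 or more gave 0.209, 2.39, 0.763, 1.07, 1.14, 1.06 and 0.524, so that the class from 5 to 20 kb changed side. Equal lengths gave 0.145 inside and 0.651, 0.801, 1.01, 1.20 and 0.723 from 1 kb on. Peaks of either H3K4me3 replicate gave 0.397, 2.52, 0.800, 0.872, 1.03 and 1.09 up to 500 kb. Lists of 4980 peaks gave 0.231 inside and 0.774, 0.933, 1.08, 1.09 and 0.664 from 1 kb on. Without the 4 densest autosomes the ratios were 0.400 inside, 2.10 up to 1 kb, 0.644 from 1 to 5 kb, 1.05 from 20 to 100 kb and 0.782 beyond 500 kb. Leaving out 1 library gave ranges of 1.44 to 1.94% for the H3K4me3 share, 2.62 to 2.89% for the H3K9me2 share and 93.6 to 105 kb for the distance. The same range for the class ratios was 0.202 to 0.381, 2.48 to 2.72, 0.733 to 0.808, 0.837 to 0.877, 1.03 to 1.04, 1.09 to 1.13 and 0.735 to 0.757. The first-kilobase difference between H3K9me2 and H3K27me3 reversed to -0.318 with 4980 peaks a list, and was 0.240 by covered bases. Bins higher in H3K4me3 and in H3K9me2 numbered 2720 and 2446 at 250 kb, 1083 and 401 with a score of at least 100, and 169 to 1156 and 473 to 840 without 1 library. A replicate block gave 601 and 743. Deviations of same-numbered libraries correlated at -0.01, and the samples were not treated as paired; whether they share a culture is unknown here. Of 78 refits of the 10 named bins, 70 kept direction and call, 8 lost the call without 1 H3K4me3 library, and 0 reversed; 22 could not be tested because fewer than 2 libraries covered the bin. Replicates of unlike H3K9me2 list length, and a depth that is unknown, limit how firmly rare overlaps can be read.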

Other observations

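H3K9me2 regions that also carried H3K27me3 in both replicates touched H3K4me3 in 7 of 455 cases (1.54%, exact interval 0.621 to 3.14%), against 201 of 5526 (3.64%, 3.16 to 4.17%) without H3K27me3; no test was made. In all, 345 of the 13686 H3K4me3 regions (2.52%) overlapped H3K9me2 when a peak of either replicate counted, the 217 included. From the 5981 H3K9me2 regions found in both, the density ratio up to 1 kb from H3K4me3 was 3.05, on 190 midpoints, and inside it was 0.327, on 17 midpoints. By covered bases the ratios of these regions were 1.73 up to 1 kb and 0.940 inside, the latter near the rate of the territory. These merged regions had a median width of 1883 bp, against 1497 bp for the H3K4me3 regions found in both.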
